A study of Mus musculus with 4 samples.

Results

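Retinoic acid is the signalling form of vitamin A. Cells make it from retinaldehyde with ALDH1A enzymes, shuttle it with the binding proteins CRABP1 and CRABP2, sense it through nuclear receptors such as RARB, and destroy it with CYP26 enzymes, so that tissues which make it and tissues which clear it lie side by side. In the embryo this system patterns the hindbrain and the inner ear, and either too little or too much of it disturbs ear development. The 9 genes described here are Cyp26a1, Cyp26b1 and Cyp26c1 (degradation), Aldh1a2 and Aldh1a3 (synthesis), Dhrs3 (reduction of retinaldehyde back to retinol), Crabp1 and Crabp2 (binding) and Rarb (receptor). They were taken by gene symbol from the 25239 symbols of the deposited tables. All 9 were found, each on 1 row. They were selected on their TPM (transcripts as a share of the library, corrected for their length) across the 4 genotypes, so their levels and differences are a description and carry no test.

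RNA was measured in mouse cochleovestibular ganglia (CVG), the paired ganglia of young hearing and balance neurons beside the ear vesicle, all at embryonic day 11.5. There was 1 library each from Isl1CKO, Pou4f1KO, DKO and control ganglia. ISL1 is a LIM-homeodomain factor and POU4F1 a POU-homeodomain factor of sensory neurons, and the study asked how both shape these neurons. Isl1CKO was read as a conditional Isl1 deletion, Pou4f1KO as a Pou4f1 deletion and DKO as the deletion of both. The driver of the conditional allele, the alleles carried by the control embryos and the number of embryos in a library are not given in the sources used here. With 1 library per genotype there is no replicate spread, so no p-value was computed, no neighbouring levels can be said to differ beyond error, and every difference compares libraries.

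The libraries held an estimated 13.6 to 16.6 gigabases of aligned sequence, and 1 TPM corresponded to a mean read depth of about 4.95 to 5.93 per base. Both were derived from the most frequent ratio of coverage to FPKM, which 63.7% to 64.0% of expressed rows shared. Other rows depart from it. Pou4f1 stood at 16.6 TPM in Pou4f1KO and 14.6 TPM in DKO, against 188 TPM in Isl1CKO and 146 TPM in control. Isl1 went against its labels, with 854 TPM in Isl1CKO and 579 TPM in DKO, against 340 TPM in Pou4f1KO and 450 TPM in control. A level summed over the entire gene may miss the removal of single exons, so it leaves these labels unchecked. Isl1CKO and DKO are used here as names of the libraries so labelled, and each direction drawn from them rests on that label. All 12 markers of CVG neurons fixed for this work were at 1 TPM or more in every library. Markers of surface ectoderm, otic epithelium, mesenchyme and endothelium were also measured in every library, so the source label "CVG neurons" covers other cells too. In the surface ectoderm list Krt5, Krt14 and Trp63 were under 1 TPM in control, at 0.693, 0.372 and 0.159 TPM. Epcam (87.8 TPM) and Cldn6 (115 TPM) were among its highest genes there. Which epithelium that list reflects was not tested, and its name is used as a label only. In such bulk tissue, fewer cells of a type and less RNA per cell cannot be told apart.

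The promoters of 4 genes are shown first, because Cyp26a1 and Cyp26c1 turned out to share a pattern across genotypes, Cyp26b1 to have another, and Rarb to vary little. RAR receptors pair with RXR receptors and bind direct repeats of a 6-base half-site, and the promoters of Cyp26a1 and Rarb are textbook examples of such retinoic acid response elements. Each line gives the 250 bases before the start in the RefSeq table, 5′ to 3′ on the gene's strand, on GRCm38.p6 (mm10). That start is also the start of the deposited row for Cyp26a1 and Cyp26c1. For Cyp26b1 it lies just inside the row, and for Rarb far inside it, so the Rarb window belongs to an internal transcript start while the TPM is that of the whole row. Capitals mark the half-sites of a direct repeat with a 5-base spacer (DR5).
Cyp26a1, chr19:37697558-37697807, plus strand: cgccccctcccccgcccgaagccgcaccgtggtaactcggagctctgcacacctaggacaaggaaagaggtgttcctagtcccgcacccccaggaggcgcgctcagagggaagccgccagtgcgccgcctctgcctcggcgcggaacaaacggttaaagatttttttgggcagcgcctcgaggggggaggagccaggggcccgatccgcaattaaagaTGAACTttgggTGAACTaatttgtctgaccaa
Cyp26c1, chr19:37685430-37685679, plus strand: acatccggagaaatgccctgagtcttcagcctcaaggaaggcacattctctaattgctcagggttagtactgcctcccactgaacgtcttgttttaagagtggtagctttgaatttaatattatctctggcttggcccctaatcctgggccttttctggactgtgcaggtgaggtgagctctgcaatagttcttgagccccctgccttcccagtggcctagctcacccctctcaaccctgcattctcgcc
Cyp26b1, chr6:84593811-84594060, minus strand: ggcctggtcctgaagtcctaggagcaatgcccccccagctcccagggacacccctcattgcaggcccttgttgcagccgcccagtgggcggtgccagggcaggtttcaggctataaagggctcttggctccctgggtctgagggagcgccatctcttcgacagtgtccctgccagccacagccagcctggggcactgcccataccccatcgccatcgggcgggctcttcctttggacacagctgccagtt
Rarb, chr14:16575477-16575726, minus strand: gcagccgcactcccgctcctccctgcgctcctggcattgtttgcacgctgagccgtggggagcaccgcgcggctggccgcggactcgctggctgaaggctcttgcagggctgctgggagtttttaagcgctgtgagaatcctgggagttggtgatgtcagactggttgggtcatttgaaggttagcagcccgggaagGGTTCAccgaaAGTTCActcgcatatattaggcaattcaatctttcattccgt

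The search covered windows of 300 bases, from 250 before to 50 after each start, on both strands. The half-sites were AGGTCA and GGGTCA as well as AGTTCA and GGTTCA, taken in pairs with spacers of 1 base (DR1), 2 bases (DR2) or 5 bases (DR5). Of the 9 genes, 7 had a window (Aldh1a3 and Crabp2 did not). A DR5 lay in the windows of Cyp26a1, from 32 to 16 bases before the start on the minus strand, and of Rarb, from 53 to 37 bases before it on the plus strand. Both repeats are shown on the strand where they were found, so that they can be read side by side.
Cyp26a1: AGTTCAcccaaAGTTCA
Rarb: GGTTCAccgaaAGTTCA
A DR5 of this kind was found in 0.0974% of all 32851 windows. DR1 and DR2 matches, held by 0.222% and 0.268% of all windows, were found in none of the 7 genes' windows. A single half-site, which every direct repeat also holds, was in 43.7% of all windows, and among the 7 genes in those of Cyp26a1 and Rarb. These matches describe letters in these windows only.

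Across the genes, levels spanned from about 1 TPM for Aldh1a2 to over 100 TPM for Crabp2 in each library. The ratio of the highest to the lowest library was 9.67 for Cyp26c1, 4.84 for Cyp26a1, 4.53 for Cyp26b1, 3.35 for Aldh1a3, 2.51 for Crabp1 and 2.39 for Dhrs3. It was under 2 for the rest, at 1.64 for Aldh1a2, 1.38 for Rarb and 1.30 for Crabp2. The degrading enzymes thus varied most among the genotypes, and the receptor and the more abundant binding protein least. Summed over the 9 genes, the level was 238 TPM in Isl1CKO, 264 TPM in Pou4f1KO, 265 TPM in DKO and 265 TPM in control.

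**Figure D1:**
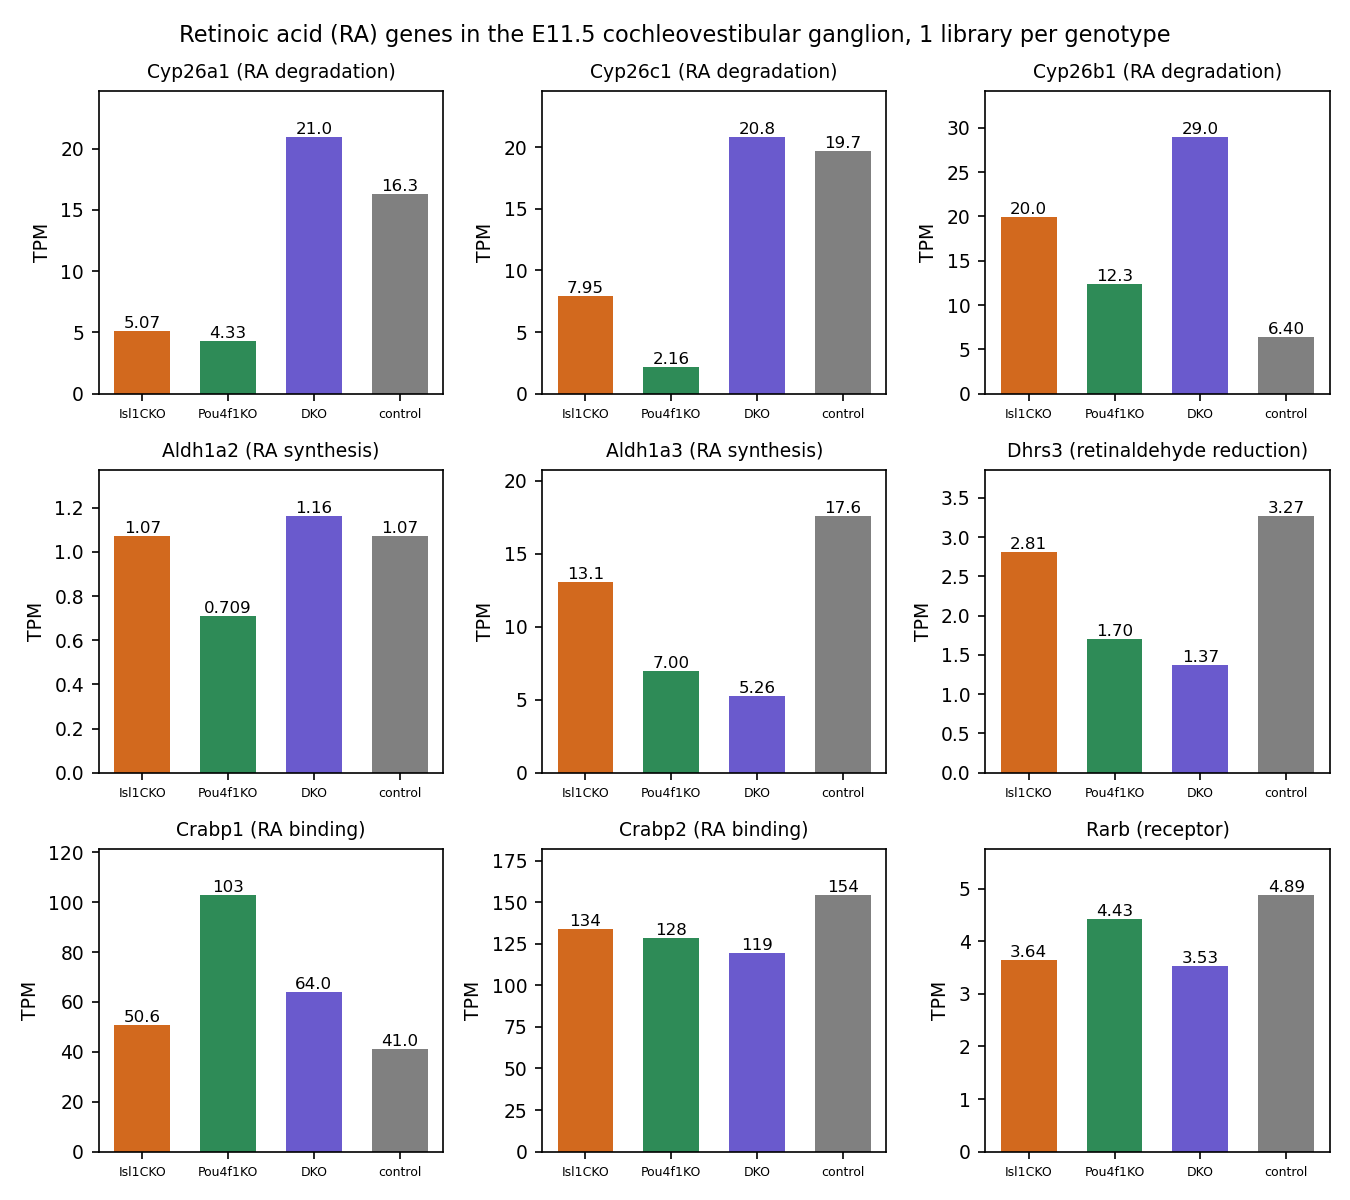
Level in TPM (y axes, each from 0) of the 9 retinoic acid genes in the 4 libraries (x axes), 1 bar per library with its value above it. Cyp26a1 and Cyp26c1 were low in Isl1CKO and Pou4f1KO and near control in DKO, Cyp26b1 was lowest in control, and Aldh1a3 was highest in control.

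Cyp26a1 and Cyp26c1 encode enzymes that inactivate retinoic acid by oxidation, and they were low in each single mutant and near the control level in the double mutant. Cyp26a1 (chromosome 19, 37697808 to 37701536, plus strand, protein coding, up to 7 exons) had 5.07 TPM in the library labelled Isl1CKO, 4.33 TPM in Pou4f1KO, 21.0 TPM in the library labelled DKO and 16.3 TPM in control. Cyp26c1 (chromosome 19, 37685680 to 37693307, plus strand, protein coding, up to 6 exons) had 7.95, 2.16, 20.8 and 19.7 TPM in Isl1CKO, Pou4f1KO, DKO and control. For both genes, the single-mutant libraries were lower than DKO and control. The single mutants were not alike for Cyp26c1, at 7.95 TPM in Isl1CKO and 2.16 TPM in Pou4f1KO. The coverage behind these levels was 25.1, 25.0, 122 and 96.6 reads per base for Cyp26a1 in that order, and 39.3, 12.4, 121 and 117 for Cyp26c1.

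On the log2 scale of (TPM + 1), which understates differences of weakly expressed genes, the ratio of Cyp26a1 to control was -1.51 in the library labelled Isl1CKO and -1.70 in Pou4f1KO. Cyp26c1 had log2 ratios of -1.21 in Isl1CKO and -2.71 in Pou4f1KO. In the library labelled DKO the ratios to control were 0.35 for Cyp26a1 and 0.08 for Cyp26c1. The 3 comparisons share the control library, so the ratios are given side by side and not as separate evidence.

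Comparisons of library pairs with no library in common show the same genes moving in opposite directions with the same label. The Pou4f1 label went with a log2 ratio of -1.70 for Cyp26a1 where Isl1 was not marked as deleted (Pou4f1KO against control) and of 1.85 where it was (DKO against Isl1CKO). For Cyp26c1 these were -2.71 and 1.29. The Isl1 label went with -1.51 for Cyp26a1 in Isl1CKO against control and 2.04 in DKO against Pou4f1KO, and with -1.21 and 2.79 for Cyp26c1. Among the 15049 genes tested (1 TPM or more in at least 1 library), 6 (0.0399%) were at least 2-fold lower and then at least 2-fold higher with the Pou4f1 label, and 5 (0.0332%) with the Isl1 label. Cyp26a1 and Cyp26c1 were among both. The departure from additivity, which sets the DKO ratio to control against the value expected if the Isl1CKO and Pou4f1KO ratios simply added up on the log2 scale, was 3.55 for Cyp26a1 and 4.00 for Cyp26c1. These were the 2 of the 9 genes with a departure of 1 or more in size, both positive. Of all genes tested, 2.52% had such a departure, 1.41% positive and 1.11% negative. Marker lists of other cells held them too. They were positive in 8 of 18 measured mesenchyme, 5 of 18 otic epithelium and 4 of 11 surface ectoderm markers, with 0 negative. In the hindbrain and neural tube list 13 of 19 were negative and 0 positive. Departures of 1 or more in size were thus not particular to Cyp26a1 and Cyp26c1. Departures as far from 0 as theirs were rarer, at 0.0532% of all genes tested for Cyp26a1 and 0.0332% for Cyp26c1. In these lists the largest positive departure was 2.46 (Prrx2) and the largest negative one -3.58 (Olig3).

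**Figure D2:**
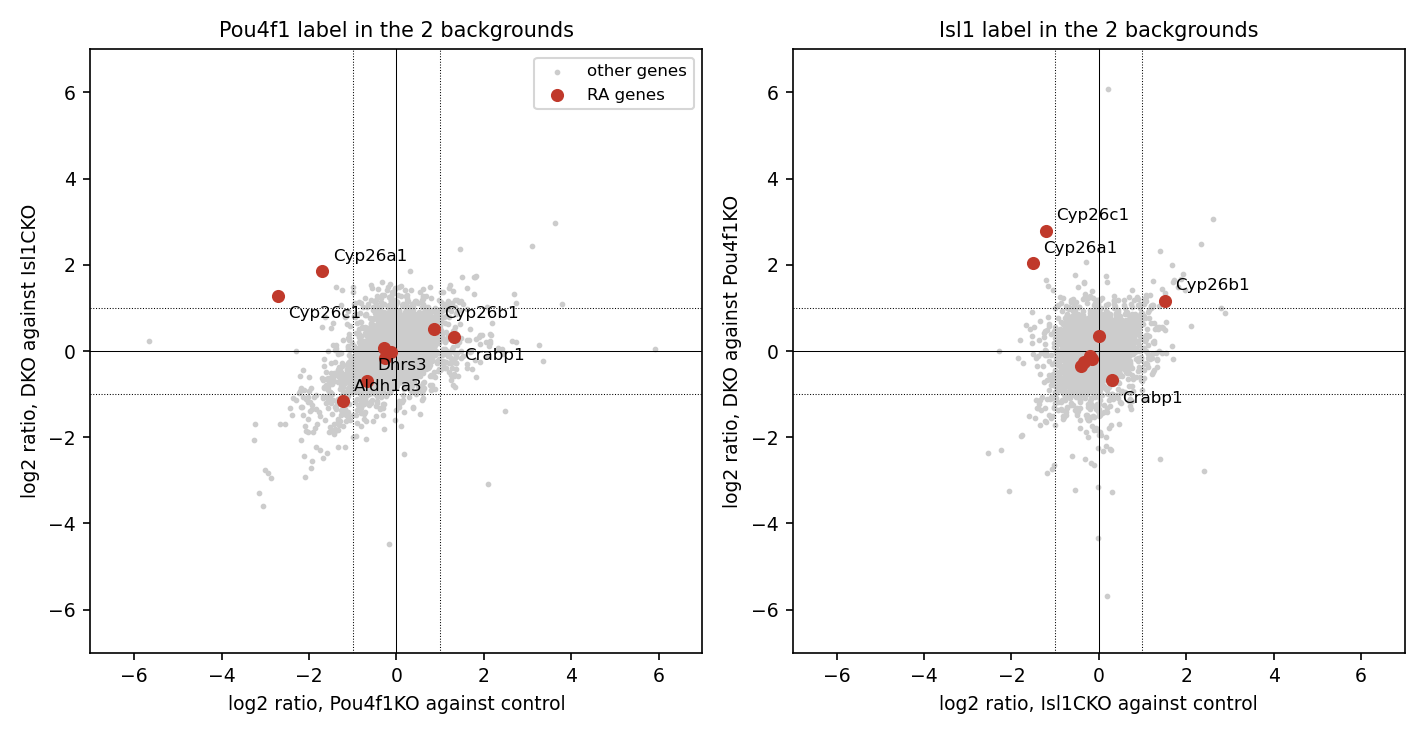
Log2 ratio of (TPM + 1) tied to 1 label without the other deletion (x axes) and with it (y axes); the left panel shows the Pou4f1 label and the right panel the Isl1 label, red points the 9 genes, grey points all other genes tested, and dotted lines 2-fold. Cyp26a1 and Cyp26c1 lie at the upper left of both panels, and Cyp26b1 lies at the upper right of the Isl1 panel at 1.50 and 1.17.

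Cyp26a1 and Cyp26c1 are neighbours, with 4500 bases between their rows. Within 200 kb the deposited tables listed Exoc6, which encodes an exocyst subunit, and Myof, which encodes myoferlin. Exoc6, which ends 14558 bases before Cyp26a1, had 13.8 TPM in Isl1CKO, 14.7 TPM in Pou4f1KO, 14.5 TPM in DKO and 13.4 TPM in control, with ratios to control of 0.04, 0.12 and 0.10. Myof, 197499 bases to the other side, had 2.25, 1.71, 2.17 and 3.92 TPM in the same order, with ratios of -0.60, -0.86 and -0.63. On the scale of (TPM + 1) neither flanking gene reached 2-fold in any of these comparisons, and neither had the high DKO level of the Cyp26 pair. Without the added 1 TPM, Myof in Pou4f1KO (1.71 TPM) was more than 2-fold below control (3.92 TPM). The ratio of Cyp26a1 to Cyp26c1 in TPM was not constant, at 0.638 in Isl1CKO, 2.01 in Pou4f1KO, 1.01 in DKO and 0.828 in control.

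Markers of other cells moved with this pair in part. The mesenchyme list (18 of 19 markers reached 1 TPM in some library, none at 0) summed to 511 TPM in Isl1CKO, 674 TPM in Pou4f1KO, 779 TPM in DKO and 659 TPM in control. Its median log2 ratio was -0.51 in Isl1CKO against control, -0.25 in Pou4f1KO against control and 0.33 in DKO against control, with 1 lower, 1 lower, and 1 higher and 1 lower past 2-fold. Between mutants it was 0.75 in DKO against Isl1CKO, with 5 of 18 higher, and 0.52 in DKO against Pou4f1KO, with 3 of 18 higher. The mesenchymal homeobox gene Prrx2, at 5.71, 6.01, 17.7 and 12.8 TPM in Isl1CKO, Pou4f1KO, DKO and control, had the order of Cyp26a1 except for the single mutants. The endothelial list had median log2 ratios of 0.71 in DKO against Isl1CKO, with 2 of 9 higher (Tek at 1.10 and Cldn5 at 1.16), and of 0.35 in DKO against Pou4f1KO, with 0 of 9 past 2-fold. The part of mesenchyme and vessel content in the Cyp26a1 and Cyp26c1 values was not tested.

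Epithelial markers followed another pattern. The otic epithelium list (18 markers, none at 0) summed to 316 TPM in Isl1CKO, 249.9 TPM in Pou4f1KO, 194 TPM in DKO and 494 TPM in control, and the surface ectoderm list (11 of 13 markers measured, none at 0) to 231, 74.5, 82.1 and 391 TPM. In DKO against control their median log2 ratios were -1.29 and -1.90, whereas Cyp26a1 and Cyp26c1 were at 0.35 and 0.08. There 11 of 18 and 10 of 11 markers were at least 2-fold lower, and 1 otic marker was higher (Tbx1, 1.46). In Pou4f1KO against control the medians were -1.19 and -2.08, beside -1.70 and -2.71 for the pair. Of the markers, 13 of 18 and 10 of 11 were lower there, and 1 otic marker was higher (Pax8, 1.07). In Isl1CKO against control the medians were -0.60 and -0.75, with 2 of 18 and 0 of 11 markers lower. The part of these markers in the low values of the single mutants was not tested.

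**Figure D3:**
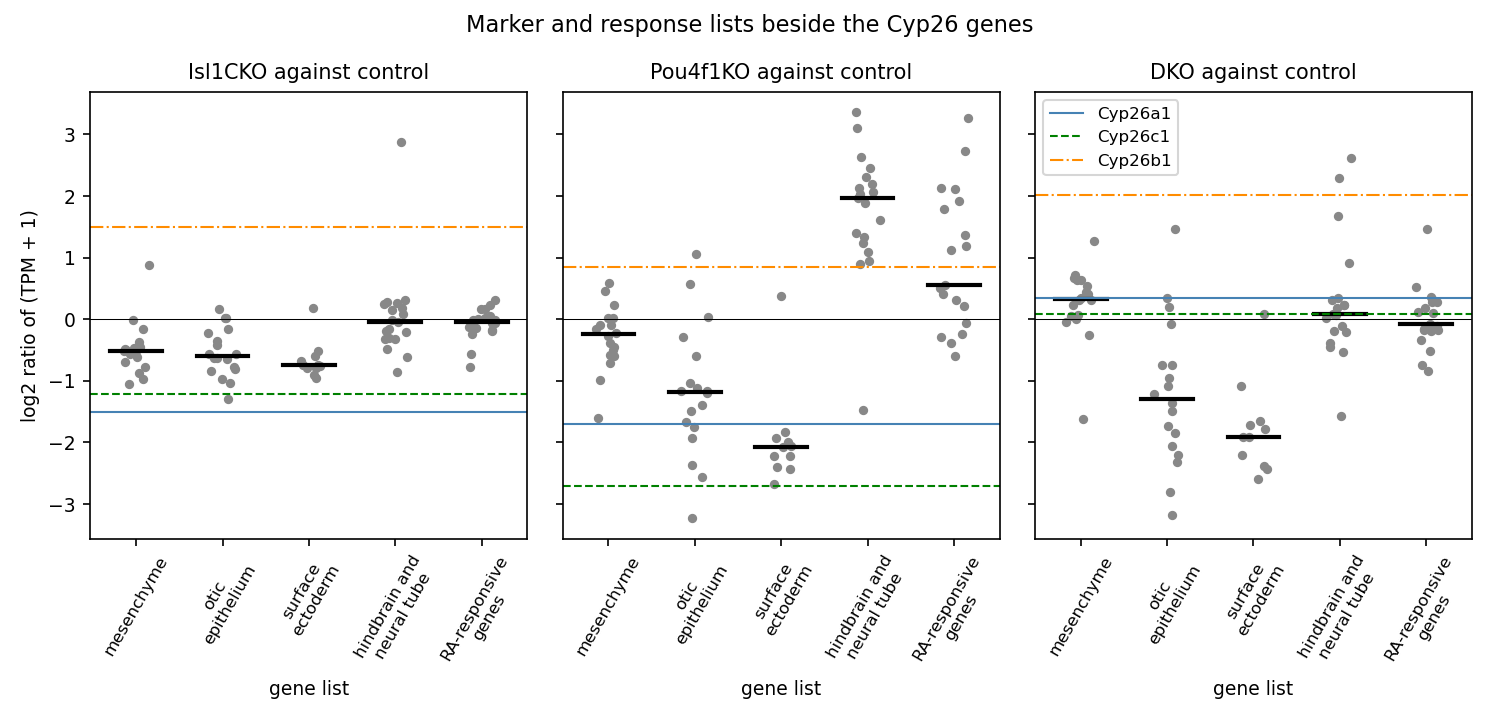
Log2 ratio of (TPM + 1) to control (y axis, shared) of each measured gene of 5 lists (grey points, spread sideways at random; black bars are list medians), with the values of Cyp26a1, Cyp26c1 and Cyp26b1 as lines across; the panels show Isl1CKO, Pou4f1KO and DKO. In DKO the epithelial medians lie at -1.29 and -1.90 while the lines of Cyp26a1 and Cyp26c1 lie at 0.35 and 0.08.

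Cyp26b1, the third degrading enzyme (chromosome 6, 84571414 to 84593908, minus strand, protein coding, up to 7 exons), was higher than control in every mutant library. It had 20.0 TPM in the library labelled Isl1CKO, 12.3 TPM in Pou4f1KO, 29.0 TPM in the library labelled DKO and 6.40 TPM in control, with coverage of 96.9, 69.8, 165 and 37.2. The control library was the lowest and the double mutant the highest. Its log2 ratio to control was 1.50 in Isl1CKO, 0.85 in Pou4f1KO and 2.02 in DKO, the second of these short of 2-fold on this scale. With the Isl1 label its log2 ratio was 1.50 in Isl1CKO against control and 1.17 in DKO against Pou4f1KO, and its departure from additivity was -0.33. The endothelial list (9 markers, none at 0) summed to 73.9, 99.2, 127 and 104 TPM in Isl1CKO, Pou4f1KO, DKO and control, with median ratios to control of -0.45, -0.01 and 0.29 and no marker past 2-fold against control.

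Both the sum and the make-up of the degrading enzymes differed between libraries. The summed level of the 3 Cyp26 genes was 33.0 TPM in Isl1CKO, 18.8 TPM in Pou4f1KO, 70.8 TPM in DKO and 42.4 TPM in control. Cyp26b1 made up 60.5% of it in Isl1CKO, 65.5% in Pou4f1KO and 41.0% in DKO, against 15.1% in control. Cyp26c1 made up 24.1%, 11.5% and 29.4% in these mutants and 46.4% in control.

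Of the synthesising enzymes, Aldh1a3 was abundant enough to follow and was lower in Pou4f1KO and in the library labelled DKO. Aldh1a3 (chromosome 7, 66390893 to 66427477, minus strand, protein coding, up to 13 exons) converts retinaldehyde to retinoic acid and had 13.1 TPM in Isl1CKO, 7.00 TPM in Pou4f1KO, 5.26 TPM in DKO and 17.6 TPM in control. Its log2 ratio to control was -0.41, -1.22 and -1.57 in these mutants. With the Pou4f1 label it was lower in both backgrounds, at -1.22 in Pou4f1KO against control and -1.17 in DKO against Isl1CKO, and its departure was 0.05. The sums and the median ratios to control of the otic epithelium list above were in the same order. In the Pou4f1KO sum of that list, Fgf10 alone held 144 TPM, against 96.5 TPM in control. The list's median in DKO against Pou4f1KO was -0.06, with 2 of 18 markers higher and 3 lower. The part of these markers in the values of Aldh1a3 was not tested.

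Aldh1a2 (chromosome 9, 71215789 to 71296243, plus strand, protein coding, up to 14 exons), the main enzyme of retinoic acid synthesis in the early embryo, was close to the detection filter in every library. It had 1.07 TPM in Isl1CKO, 0.709 TPM in Pou4f1KO, 1.16 TPM in DKO and 1.07 TPM in control, at a coverage of 4.09 to 6.78. Its log2 ratios to control were 0.00, -0.28 and 0.06, the first of which changed sign under pan-neuronal scaling and when haemoglobin, ribosomal protein and Rn45s genes were left out. The related Aldh1a1, which is not among the 9 genes, had 0.200 TPM in Isl1CKO, 6.88 TPM in Pou4f1KO, 0.104 TPM in DKO and 1.74 TPM in control. Summed over the 3 ALDH1A enzymes, the level was 14.3, 14.6 and 6.53 TPM in Isl1CKO, Pou4f1KO and DKO and 20.4 TPM in control, with Aldh1a1 making up 47.2% in Pou4f1KO and 1.39%, 1.59% and 8.51% in Isl1CKO, DKO and control.

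**Figure D4:**
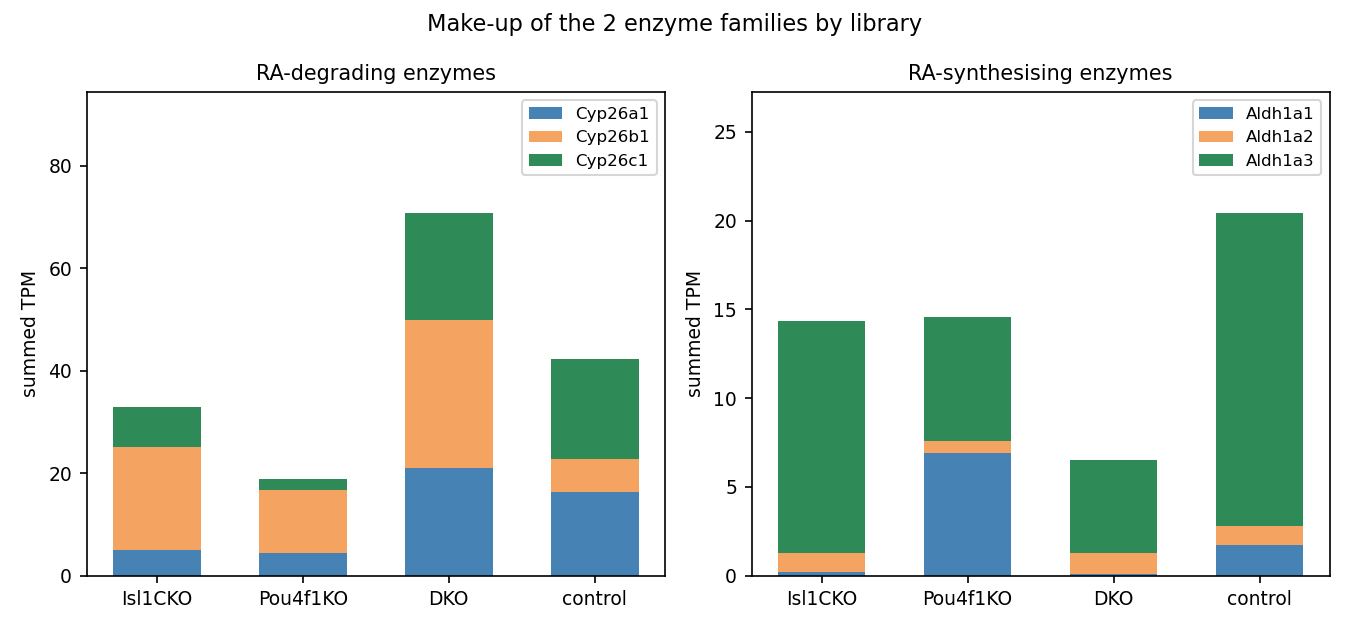
Summed level in TPM (y axes, from 0) of the 3 Cyp26 genes (left) and the 3 Aldh1a genes (right) in each library (x axes), stacked by gene. DKO had the highest Cyp26 sum (70.8 TPM) and the lowest Aldh1a sum (6.53 TPM), and Cyp26b1 took a larger share in each mutant than the 15.1% in control.

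Dhrs3 (chromosome 4, 144892827 to 144928209, plus strand, protein coding, up to 7 exons) encodes a reductase that turns retinaldehyde back into retinol and so limits synthesis. It had 2.81 TPM in Isl1CKO, 1.70 TPM in Pou4f1KO, 1.37 TPM in DKO and 3.27 TPM in control, at a coverage of 7.13 to 16.2. The libraries with the Pou4f1 label were the lower ones, but its ratios to control of -0.16, -0.66 and -0.85 stayed short of 2-fold. With pseudocounts of 0.5 and 0.1 TPM in place of 1, the ratio in DKO was -1.01 and -1.20, past 2-fold.

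The binding proteins differed from each other. Crabp1 (chromosome 9, 54764748 to 54773110, plus strand, protein coding, up to 4 exons), which holds retinoic acid in the cytoplasm, had 50.6 TPM in Isl1CKO, 103 TPM in Pou4f1KO, 64.0 TPM in DKO and 41.0 TPM in control. Pou4f1KO was the high library, and the others lay between 41.0 and 64.0 TPM. Its log2 ratio to control was 0.30, 1.31 and 0.63 in these mutants and -0.68 in DKO against Pou4f1KO. Crabp2 (chromosome 3, 87948693 to 87953372, plus strand, protein coding, up to 4 exons), which delivers retinoic acid to its receptors, was the most abundant of the 9 genes, with 134, 128 and 119 TPM in Isl1CKO, Pou4f1KO and DKO and 154 TPM in control. Its ratios to control were -0.20, -0.26 and -0.37, and Crabp2 was the gene among the 9 whose highest and lowest levels lay closest together. Crabp2 exceeded Crabp1 by 2.64, 1.25 and 1.86 times in Isl1CKO, Pou4f1KO and DKO and by 3.77 times in control.

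Markers of neighbouring neural tissue stood apart in the library in which Crabp1 was high. The hindbrain and neural tube list (24 markers, 19 of which reached 1 TPM in some library) summed to 64.4 TPM in Isl1CKO, 138 TPM in Pou4f1KO, 58.5 TPM in DKO and 62.2 TPM in control. In Pou4f1KO 19 of its markers were at 1 TPM or more, against 5 in control, and 11 of the 19 reached it in Pou4f1KO alone, so the filter itself favours markers that are high there. Of the 5 at 1 TPM or more in control, named after their values were seen, Irx3 was lower in Pou4f1KO (15.8 TPM, against 45.4 TPM in control). The others were higher, with log2 ratios of 1.33 for Pax3, 1.40 for Lhx1, 2.20 for Neurog2 and 2.04 for Hes5. Lhx1 was higher still in the other mutants, at 28.8 TPM in Isl1CKO and 18.9 TPM in DKO, against 9.72 TPM in Pou4f1KO. In DKO against control 3 of the 19 markers were past 2-fold higher (Sim1 at 2.62, Lhx1 at 2.30 and Nkx6-1 at 1.68) and 1 was lower (Irx3). Pax7, Ptf1a, Dbx1 and En1 were listed at 0 in Isl1CKO, Pax7 and En1 in DKO and Dbx2 in control, and none in Pou4f1KO. The part of such tissue in the Crabp1 and Aldh1a1 values of Pou4f1KO was not tested.

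Rarb (chromosome 14, 16430840 to 17082331, minus strand, protein coding, up to 8 exons) encodes the receptor RARβ, whose gene is itself induced by retinoic acid. It had 3.64 TPM in Isl1CKO, 4.43 TPM in Pou4f1KO, 3.53 TPM in DKO and 4.89 TPM in control. Its log2 ratios to control were -0.34, -0.12 and -0.38, and in DKO it was at -0.03 against Isl1CKO, a value whose sign changed under pan-neuronal scaling, and at -0.26 against Pou4f1KO. Rarb made up 12.7%, 12.6% and 9.78% of the summed level of Rara, Rarb and Rarg in Isl1CKO, Pou4f1KO and DKO, and 13.3% in control. In the GENCODE M21 annotation Rarb overlaps Top2b on the other strand, although no other deposited row overlaps that of Rarb. The libraries were strand-specific, but it is not stated that reads were assigned by strand, so the level of Rarb is uncertain to that extent.

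Counted together, 3 of the 9 genes were past 2-fold in Isl1CKO against control, where 1.20% of all 15049 genes were (0.585% higher and 0.618% lower). They were Cyp26b1 (higher) and Cyp26a1 and Cyp26c1 (lower). In Pou4f1KO against control 4 of 9 were, against 2.70% of all genes (0.977% higher and 1.73% lower), with Crabp1 higher and Cyp26a1, Cyp26c1 and Aldh1a3 lower. In DKO against control 2 of 9 were, against 3.35% (1.01% higher and 2.34% lower), with Cyp26b1 higher and Aldh1a3 lower. In DKO against Isl1CKO 3 of 9 were, against 2.10% (0.870% higher and 1.23% lower), with Cyp26a1 and Cyp26c1 higher and Aldh1a3 lower. In DKO against Pou4f1KO 3 of 9 were, against 1.76% (0.645% higher and 1.12% lower), all of them Cyp26 genes and all higher. The genes were chosen with these contrasts known, so nothing is read from the counts. Their medians were -0.20, -0.28 and 0.06 in Isl1CKO, Pou4f1KO and DKO against control, beside -0.02, 0.02 and -0.01 over all genes tested, and 0.06 and -0.11 in DKO against Isl1CKO and Pou4f1KO, beside 0.01 and -0.02.

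**Figure D5:**
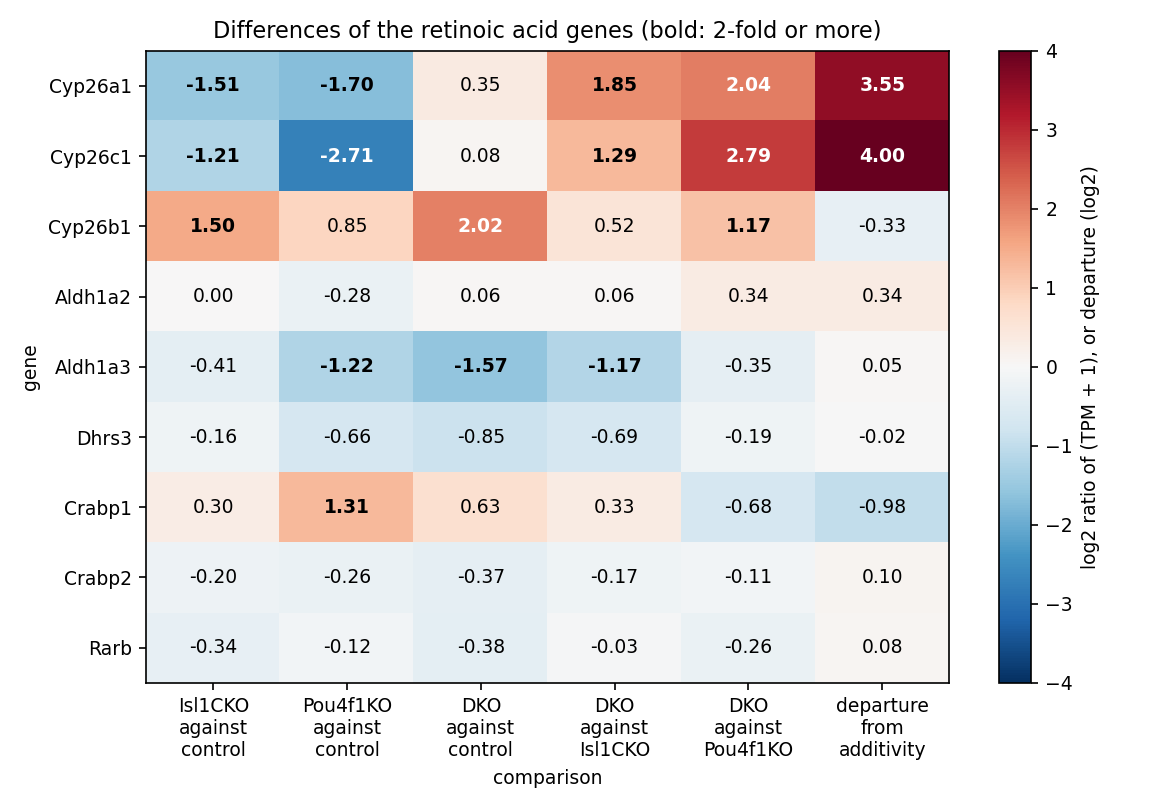
Log2 ratio of (TPM + 1) for each of the 9 genes (rows) in 5 comparisons and the departure from additivity (columns), coloured from blue (negative) to red (positive), with values of 1 or more in size in bold. The rows of Cyp26a1 and Cyp26c1 change sign between the single-mutant columns and the columns of DKO against a single mutant, and their departures are 3.55 and 4.00.

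Other genes of the pathway, from lists of supply enzymes and carriers, receptors, coregulators and responsive genes, were set beside the 9 genes. Of 26 supply genes, 14 reached 1 TPM in some library. In Isl1CKO 1 of these was higher (Ttr, which encodes the retinol-binding-protein partner transthyretin, 1.41) and 1 lower (Aldh1a1, -1.19), in Pou4f1KO 2 were higher (Aldh1a1, 1.53, and Ttr, 1.46), and in DKO 1 was higher (Ttr, 3.77) and 1 lower (Aldh1a1, -1.31). Ttr had 7.92 TPM in Isl1CKO, 8.22 TPM in Pou4f1KO, 44.8 TPM in DKO and 2.36 TPM in control. Rdh10, which makes the retinaldehyde used for synthesis, had 12.1, 11.1 and 12.6 TPM in Isl1CKO, Pou4f1KO and DKO and 16.1 TPM in control. The list's median ratio to control was -0.05, -0.01 and -0.18 in these mutants.

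All 7 receptors and carriers (Rara, Rarg, the RXR genes, Fabp5 and Ppard) and all 13 coregulators were measured, and 0 of the 7 and 0 of the 13 were past 2-fold in any of the 5 comparisons. Between 1.20% and 3.35% of all genes tested were, so counts of 0 in lists this short do not set them apart. Rarg, a receptor gene, had 8.86 TPM in Isl1CKO, 7.97 TPM in Pou4f1KO, 14.3 TPM in DKO and 12.4 TPM in control. It was thus lower in the single mutants than in the other libraries, as Cyp26a1 was, with a log2 ratio of 0.63 in DKO against Isl1CKO and 0.77 in DKO against Pou4f1KO. Its departure from additivity was 1.21, and it was the 1 of the 7 with a departure of 1 or more in size. Rara had 16.0, 22.7 and 18.3 TPM in Isl1CKO, Pou4f1KO and DKO and 19.3 TPM in control. Nrip1, a corepressor of nuclear receptors, had the largest coregulator ratio in DKO, at 0.59.

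Of 25 genes known to respond to retinoic acid, 19 reached 1 TPM in some library, but 12 did so in Isl1CKO, DKO and control and 19 in Pou4f1KO. Of the 19, 7 reached it in Pou4f1KO alone, so the filter lets in genes that are high in that library. None of the 19 was past 2-fold in Isl1CKO against control. In Pou4f1KO 9 were higher, all of them Hox genes, which set position along the body axis, with ratios of 3.26 for Hoxd3, 2.73 for Hoxc4, 2.14 for Hoxd4 and 2.12 for Hoxb4. Hoxd3 had 0.148 TPM in Isl1CKO, 10.1 TPM in Pou4f1KO, 0.261 TPM in DKO and 0.160 TPM in control. The hindbrain and neural tube list was high in the same library, and its part was not tested. In DKO 1 gene was higher, Tbx1, a T-box gene of the otic vesicle that is also on the otic epithelium list. Tbx1 had 13.1 TPM in Isl1CKO, 9.38 TPM in Pou4f1KO, 33.8 TPM in DKO and 11.7 TPM in control, with a log2 ratio of 1.46 in DKO against control. The list's median ratio to control was -0.05, 0.56 and -0.07 in Isl1CKO, Pou4f1KO and DKO.

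The genes nearest in pattern were found by the Euclidean distance over the 3 log2 ratios to control among 12058 genes with at least 5 TPM in some library and a single row in the tables, a likeness over 4 libraries only. Nearest to Cyp26a1 were Cpt1b (distance 0.58), a carnitine palmitoyltransferase, Prrx2 (0.86), Cyp26c1 (1.09), Sulf1 (1.15) and Snai1 (1.20). Nearest to Cyp26c1 was Cyp26a1 (1.09), followed by Krt19 (1.44), Stk26 (1.48) and Cpt1b (1.48). Even the nearest of these lay farther off than any of the 5 genes found for Cyp26b1, Aldh1a3 or Crabp1.

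Cyp26b1 lay close to Pcdh10 (0.12), a protocadherin gene, which had 62.7 TPM in Isl1CKO, 38.5 TPM in Pou4f1KO, 87.9 TPM in DKO and 20.1 TPM in control. Then came Pkd2l1 (0.31), Medag (0.47), Adgrb2 (0.47) and Ntsr1 (0.49). Aldh1a3 lay close to Pax2 (0.10), a paired-box factor of the otic vesicle, which had 10.5, 5.82 and 4.48 TPM in Isl1CKO, Pou4f1KO and DKO and 14.4 TPM in control. Gprc5c (0.14), Rassf9 (0.15), Rffl (0.17) and Pkp3 (0.18) followed. Nearest to Crabp1 were Hoxb2 (0.22), Mir124-2hg (0.22), Mir2861 (0.35), Adgrb3 (0.38) and Marchf1 (0.40). Hoxb2 had 10.8 TPM in Isl1CKO, 19.6 TPM in Pou4f1KO, 12.6 TPM in DKO and 8.50 TPM in control.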

How the data were processed

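Strand-specific libraries from frozen ganglia came as 1 gene table per genotype. StringTie, HISAT2, SAMtools, Trimmomatic and FastQC are named in the submitters' processing notes, with genome build mm10. For settings and annotation, the sources used here give nothing. The authors deposited TPM, which sums to 1000000 in every table. The deposited FPKM (fragments corrected for transcript length and sequencing depth) was used as an alternative, and the deposited coverage (mean read depth over a gene, not scaled between libraries) shows the depth behind a value. The tables used hold no counts, so no count test or counting interval was made.

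Rows of 1 symbol were summed. Genes with 1 TPM or more in any library were tested, which were 15049 of 25239 symbols and all 9 members. Differences are log2 ratios of (TPM + 1), and 2-fold is a log2 ratio of 1 in size. Alternatives were pseudocounts of 0.1 and 0.5, no filter or 5 TPM, FPKM, 3 other scalings and the highest row of a symbol. The calculation was run on simulated data with read-sampling noise only. That simulation held no spread between animals or libraries, so it says nothing about the reliability of 1 library per genotype. Exon numbers come from GENCODE M21 and promoter windows from RefSeq. The members and gene lists were chosen with earlier results of these data known. The text names all 9 members, the targeted genes, up to 4 genes per list and comparison by size of ratio, the 5 genes nearest in pattern to each member past 2-fold against control, and the genes within 200 kb of Cyp26a1; 1 gene near Cyp26c1 in pattern is not reported here. Python 3.11.15, pandas 2.3.3 and NumPy 2.4.6 were used.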

Additional observations from a re-analysis of the deposited data

Results flagged for a closer look

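Cyp26a1 and Cyp26c1 moved in opposite directions with the same label in the 2 backgrounds, and the difference was not tested, since each value rests on 1 library per genotype. With the Pou4f1 label, Cyp26a1 had log2 ratios of -1.70 (Pou4f1KO against control) and 1.85 (DKO against Isl1CKO), and Cyp26c1 of -2.71 and 1.29. With the Isl1 label, Cyp26a1 had log2 ratios of -1.51 (Isl1CKO against control) and 2.04 (DKO against Pou4f1KO), and Cyp26c1 of -1.21 and 2.79. All 4 libraries enter each pair of ratios, so the Pou4f1 and Isl1 pairs are not separate evidence, and both rest on the Isl1 labels that the level of Isl1 itself goes against.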

How the results depend on the processing

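No paired analysis was possible because each genotype has 1 library, and for the same reason no replicate could be left out. Of 378 log2 ratios and departures of the 9 genes recomputed under 7 alternatives, 375 stayed on their side of 2-fold. The highest row of a symbol, 1 of the 7, could not move any value, since each gene had 1 row. Its 54 values are among the 375 and say nothing about stability. Of the 375, 6 changed sign, all at 0.17 or less in size. They were Aldh1a2 in Isl1CKO against control (under 2 alternatives), the departure of Dhrs3 (under 2), Crabp2 in DKO against Pou4f1KO (under 1) and Rarb in DKO against Isl1CKO (under 1). Aldh1a3 in DKO against Isl1CKO was at -0.98 with FPKM, so that 0 members were lower there, and Dhrs3 in DKO against control was at -1.20 and -1.01 with pseudocounts of 0.1 and 0.5, so that 2 members were lower with each. Over the alternatives the departure ran from 3.04 to 3.91 for Cyp26a1 and from 3.34 to 4.51 for Cyp26c1.

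The number of all genes past 2-fold depended on how low values were treated. It is given as higher and lower for Isl1CKO, Pou4f1KO and DKO against control and then for DKO against Isl1CKO and against Pou4f1KO. As reported it was 88 and 93, 147 and 260, 152 and 352, 131 and 185, and 97 and 168. With a pseudocount of 0.1 it was 220 and 287, 323 and 469, 343 and 605, 343 and 387, and 247 and 369. With 0.5 it was 147 and 160, 225 and 360, 230 and 468, 213 and 269, and 152 and 246. With a filter of 5 TPM it was 52 and 51, 88 and 167, 93 and 254, 76 and 138, and 51 and 97. With FPKM it was 36 and 25, 71 and 138, 75 and 186, 32 and 101, and 42 and 69. Pan-neuronal scaling gave 108 and 349 in Pou4f1KO against control and 139 and 117 in DKO against Pou4f1KO, and moved the median of all genes to -0.17 and 0.18 there. This scaling divides each library by 1 factor (1.10 for Pou4f1KO, 0.946 for DKO and 0.952 for control), so the ratios of a comparison move together. FPKM values were lower than TPM values (5.84 against 16.3 for Cyp26a1 in control), so the 1 added before log2 weighs more with them. What lies behind the pan-neuronal factors was not tested. With no counts and no replicates, neither counting error nor biological spread can be given, and levels near 1 TPM, as for Aldh1a2, rest on a coverage of about 5.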

Other observations

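Few other genes shared the opposite moves of Cyp26a1 and Cyp26c1, and they are named here after their values were seen. Cpt1b and the gene Cstdc5 were, like the pair, at least 2-fold lower and then at least 2-fold higher with both labels. Prrx2 was so with the Isl1 label, and Htd2 and Mir6965 with the Pou4f1 label. Cpt1b had 1.68 TPM in Isl1CKO, 1.53 TPM in Pou4f1KO, 6.16 TPM in DKO and 4.98 TPM in control.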
